A study of Mus musculus with 30 samples.

Results

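The comparison described here sets the effect of an A1cf transgene in plated hepatocytes beside its effect in whole liver. It uses 13 of the 30 libraries of the series, 6 of hepatocytes and 7 of liver, and asks which genes were called in both arms and which had an effect that differed. The hepatocyte arm has 3 pools labelled A1cf_Tg/+ and 3 pools of C57BL/6J wild type, all from mice aged 12 weeks, whose livers were digested with collagenase and whose hepatocytes were kept overnight on collagen. The liver arm has 4 pools labelled A1cf_Tg/+ and 3 pools of C57BL/6J wild type, from mice aged 12 months and sequenced as a separate study. Every pool mixes RNA of 3 to 4 mice, and RNA was selected with oligo(dT) before sequencing. Pools labelled A1cf_Tg/+ are called Tg throughout; the promoter that drives the transgene, the sex of the mice and whether the pools share mice are not given in the sources used here. Age, plating, tissue and study all change with the arm and cannot be told apart.

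A1CF is an RNA-binding protein made in liver and intestine, best known as the partner that lets the cytidine deaminase APOBEC1 edit Apob mRNA, and it also acts in other steps of RNA processing. Hepatocytes lose part of their liver programme within hours of isolation and plating, while whole liver also holds macrophages, endothelial, stellate and bile duct cells. In RNA from such mixtures, fewer cells of a type and less RNA per cell cannot be told apart.

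The pools were selected on their labels and on Acta1, the skeletal muscle actin gene, in CPM, the count relative to the library's total. Wild-type liver pool 2 was left out by that rule because Acta1 stood at 778 CPM there, against 0.163 to 0.969 CPM in the other livers and at most 45.8 CPM in a hepatocyte pool. These levels are given as a description. Total counts ran from 26144213 to 37211328 in the hepatocyte pools and from 17044839 to 20711360 in the 7 livers. The A1cf levels given next were scaled within each arm by TMM, a trimmed mean scaling of libraries. A1cf itself stood at 6.52, 10.5 and 10.6 CPM in the wild-type hepatocyte pools and at 7.94, 9.56 and 10.4 CPM in the Tg hepatocyte pools. In liver it stood at 291, 237 and 232 CPM in the wild type and at 166, 152, 143 and 160.5 CPM in Tg. A1cf counts were thus not higher in any Tg group, and in liver they were lower by edgeR (log2 fold change -0.71 ± 0.12, adjusted p = 0.0325); the gene counts do not check the Tg label, and every direction below rests on the labels. In all, 3 hepatocyte pools stood apart, with mitochondrial shares of counts of 2.01% in wild type 1 and 1.40% and 1.39% in Tg 1 and 2, against 3.14% to 3.71% in the other 3. In liver the shares were 5.67%, 6.14% and 5.98% in wild type 1, 3 and 4. Tg livers 2, 3 and 4 had higher shares of 8.21%, 7.64% and 7.35%, while Tg liver 1 had 5.52%. The part of these shares in the liver calls was not tested. Across genes, the Spearman correlation of a pool's deviation from the wild-type mean with gene length was -0.329, -0.271 and -0.145 in the Tg hepatocyte pools and from -0.222 to 0.198 in their controls. With that trend removed, 472 genes were called in hepatocytes, 440 in liver, 146 in the difference and 49 in both arms in the same direction, against 434, 385, 119 and 40 as reported below. Albumin, which marks hepatocytes, took 30980 to 40283 CPM in the hepatocyte pools, 74451 to 77435 CPM in the wild-type livers and 43685 to 50349 CPM in the Tg livers.

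Some genes moved the same way in both arms, and others were called in 1 arm or moved in opposite ways. In hepatocytes 434 of 13770 tested genes were called (3.15%), of which 211 were higher in Tg (1.53%) and 223 lower (1.62%). In whole liver 385 of 14315 were called (2.69%), 296 of them higher (2.07%) and 89 lower (0.622%). A call means a Benjamini-Hochberg adjusted p below 0.05 in edgeR's quasi-likelihood test, two-sided, over all genes tested. Fold changes below are log2 of Tg over wild type, ± an approximate standard error. It was back-calculated as the absolute fold change over the square root of the test's F statistic. For genes with few control reads it can understate the error. Where 2 sets of levels are joined by "against", the wild-type pools come first, and where folds are given in pairs, hepatocytes come first. Of the 12771 genes tested in both arms, 406 were called in hepatocytes (3.18%), 311 in liver (2.44%) and 41 in both (0.321%). Those 41 made up 10.1% of the hepatocyte calls and 13.18% of the liver calls: 30 were higher in both arms, 10 were lower in both and 1 went opposite ways. Among genes called in hepatocytes 81.28% had the same sign in liver, and among genes called in liver 79.42% had the same sign in hepatocytes, against 59.64% of all genes tested in both. Across those genes, which are not independent replicates and share their libraries, Spearman's rho between the arms' effects was 0.296 and Pearson's r was 0.356.

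The effect itself differed between arms for 119 of 15251 genes in the test of the difference, liver effect minus hepatocyte effect in a fit of all 4 groups (0.780%). Of these, 61 had a higher effect in liver (0.400%) and 58 a lower one (0.380%). Scaling moved this split: with TMM (trimmed mean scaling of libraries) applied within each tissue, 103 were higher and 30 lower, and with the length trend removed 100 were higher and 46 lower. The fit of all 4 groups shifted the median gene by -0.176 against the difference of the single-arm effects. The differences printed below, their calls and the medians over gene lists are not corrected for that shift. Of the 115 such genes tested in both arms, 47 had a negative estimate in hepatocytes and a positive one in liver, 48 the reverse, 14 were positive in both and 6 negative in both. Their arm effect was called in hepatocytes and not liver for 40, in liver and not hepatocytes for 27, in both for 7 and in neither for 41. A call in 1 arm alone was therefore not taken as a difference. The genes with a higher effect in liver had a median length of 5148 bases and those with a lower effect 3329.5, against 3510 for all genes tested.

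**Figure D1:**
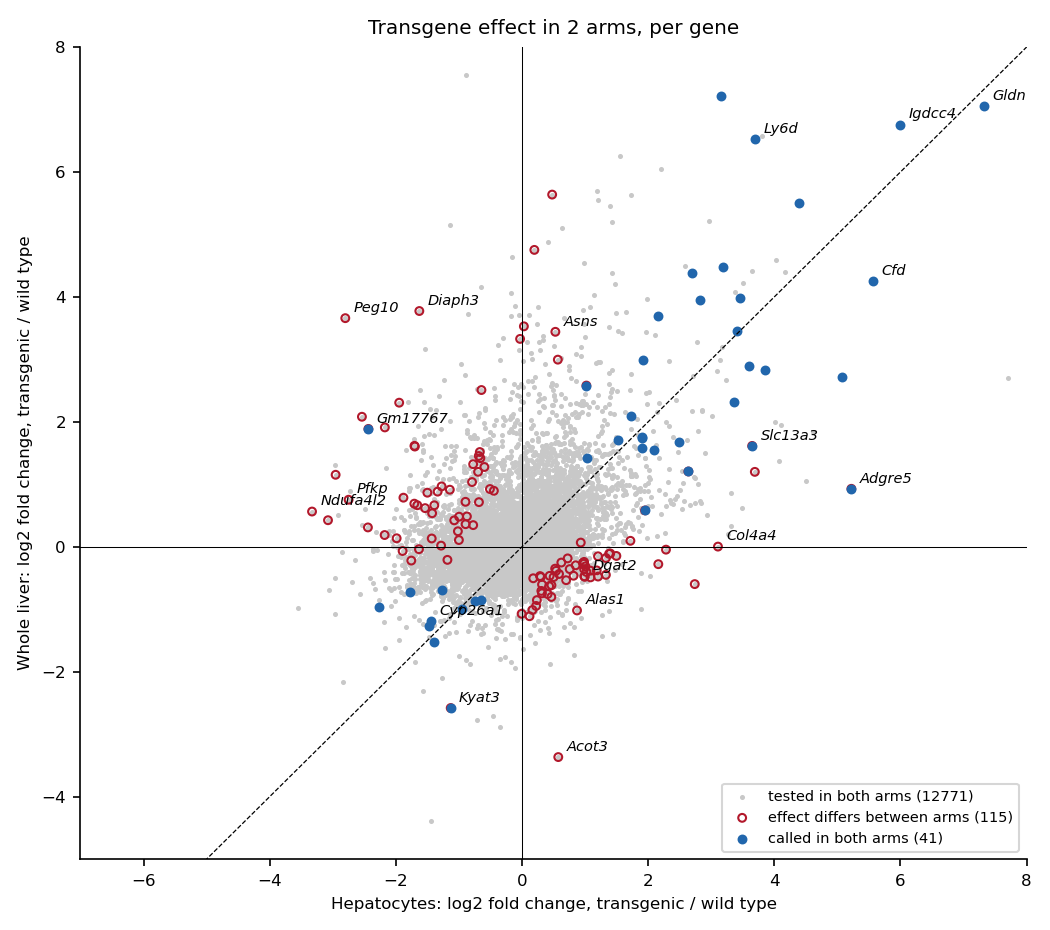
Each point is 1 of 12771 genes tested in both arms, with the log2 fold change of Tg over wild type in hepatocytes on the horizontal axis and in whole liver on the vertical axis; the dashed line marks equal effects. Of the 41 genes called in both arms (filled), 40 have effects of the same sign, and their distance from the line varies widely. The 115 genes whose effect differed (open rings) lie mostly at the upper left and the lower right.

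The number of calls depended on single pools, as the plot of counts with each pool left out shows. For the difference of effects, against 119 with all pools, leaving out wild-type hepatocyte pool 1, 2 or 3 gave 53, 72 and 9 genes, and leaving out Tg hepatocyte pool 1, 2 or 3 gave 8, 5 and 3367. Leaving out wild-type liver pool 1, 3 or 4 gave 24, 14 and 5, and leaving out Tg liver pool 1, 2, 3 or 4 gave 171, 289, 73 and 9. For genes called in both arms in the same direction, 40 with all pools, the corresponding counts were 12, 20 and 0, then 11, 7 and 123, then 5, 6 and 4, and last 114, 57, 32 and 11. The hepatocyte calls themselves numbered 44, 90 and 0 without wild-type pool 1, 2 or 3, and 29, 12 and 4934 without Tg pool 1, 2 or 3. The liver calls numbered 21, 25 and 12 without wild-type pool 1, 3 or 4 and 924, 676, 209 and 105 without Tg pool 1, 2, 3 or 4. In the fit without the 3 hepatocyte pools low in mitochondrial RNA, which leaves a single Tg hepatocyte pool whose spread is assumed like that of the other groups, 0 differences were called by edgeR (1561 at an unadjusted p below 0.05), while 47 genes were called in both arms in the same direction. With the left-out wild-type liver pool 2 included, the liver calls numbered 188, the differences 131 and the genes called in both arms in the same direction 31. Each of the 119 differences kept its sign in every leave-one-out fit, and 4 of them were called in all 13 such fits: Gm17767, Prelp, Ndufa4l2 and Adgre5. All other genes described below as differing lost the call without at least 1 pool.

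**Figure D2:**
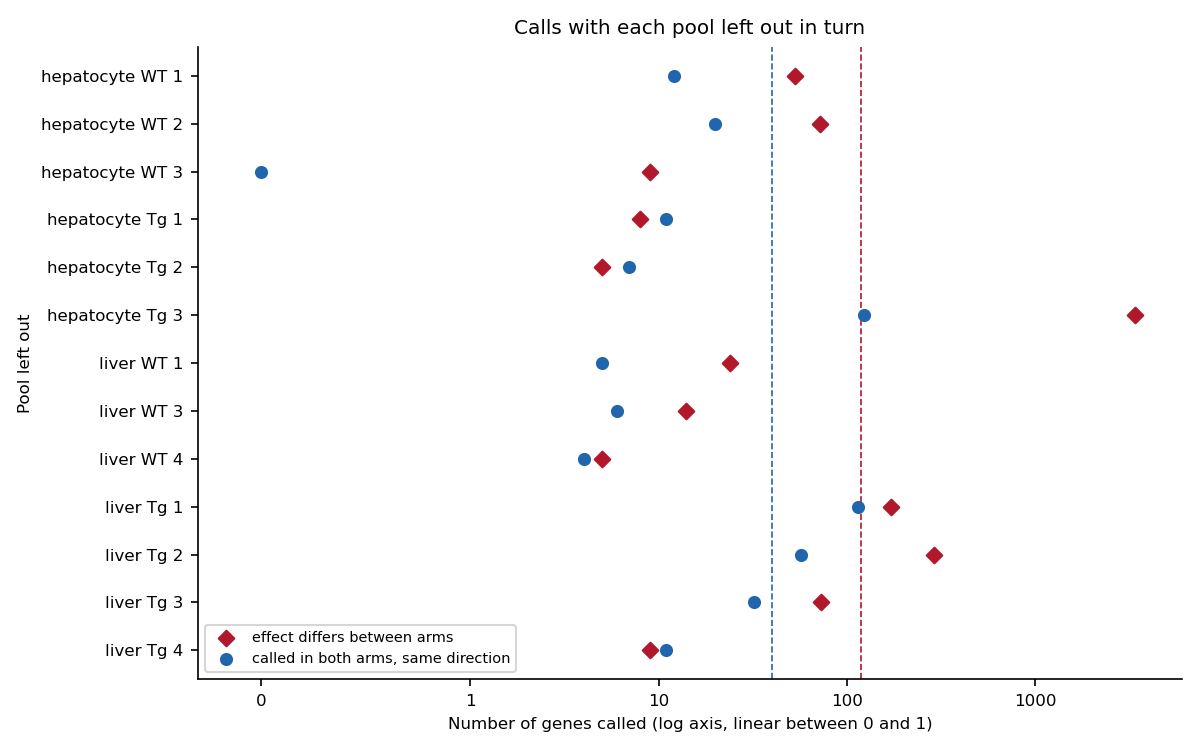
Number of genes called (horizontal log axis, linear between 0 and 1) when the pool named on the vertical axis is left out; dashed lines mark 119 differing and 40 shared genes with all 13 pools. Leaving out Tg hepatocyte pool 3 raised the differing genes to 3367, and leaving out wild-type hepatocyte pool 3 took the shared genes to 0.

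Promoter sequence is shown for 4 genes on which the results turn, from RefSeq with build GRCm38.p6, each 5′ to 3′ on the gene's own strand. Of 11 members looked up, 5 were in the table. The first pair, Gldn (chr9:54286236-54286515, plus strand) and Igdcc4 (chr9:65101236-65101515, plus strand), rose from near 0 in both arms; capitals mark GGGCGG on either strand, the core of a GC box, which 35.66% of 32851 windows of 300 bases hold. Asns (chr6:7693225-7693459, minus strand) rose in liver and not detectably in hepatocytes; capitals mark TGATGNAA on either strand, the form of an amino acid response element, held by 3.969% of windows. The Col4a4 stretch (chr1:82586820-82586950, minus strand) is shown because Col4a4 and Col4a3 start head to head with 71 bases between them, marked in capitals, and both had an effect that was lower in liver; 30 bases of each gene flank them.
Gldn: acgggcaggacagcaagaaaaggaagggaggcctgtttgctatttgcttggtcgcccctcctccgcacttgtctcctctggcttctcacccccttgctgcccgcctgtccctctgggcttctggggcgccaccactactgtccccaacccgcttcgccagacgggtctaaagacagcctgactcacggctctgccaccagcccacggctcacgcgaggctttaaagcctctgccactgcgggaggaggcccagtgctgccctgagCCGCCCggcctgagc
Igdcc4: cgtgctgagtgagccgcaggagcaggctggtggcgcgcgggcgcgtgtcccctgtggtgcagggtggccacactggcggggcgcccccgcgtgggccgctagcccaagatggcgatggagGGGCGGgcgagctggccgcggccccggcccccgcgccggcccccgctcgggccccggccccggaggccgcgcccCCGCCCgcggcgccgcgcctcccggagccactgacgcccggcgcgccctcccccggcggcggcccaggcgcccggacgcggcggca
Asns: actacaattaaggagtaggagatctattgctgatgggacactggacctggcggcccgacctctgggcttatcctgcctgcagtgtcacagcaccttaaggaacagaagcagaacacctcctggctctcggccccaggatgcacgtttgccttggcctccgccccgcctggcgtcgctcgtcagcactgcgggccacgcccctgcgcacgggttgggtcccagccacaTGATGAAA
Col4a4 and Col4a3: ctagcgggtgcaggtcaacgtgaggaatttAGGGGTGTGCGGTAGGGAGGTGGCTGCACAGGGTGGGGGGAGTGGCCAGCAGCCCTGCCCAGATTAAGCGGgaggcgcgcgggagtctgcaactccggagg
In the full windows, GGGCGG occurred 1 time each in Gldn and Asns, at 2 places in Igdcc4 and 0 times in Col4a4; TGATGNAA occurred 0 times in the other 3. TATAAA, held by 13.62% of windows, was in 0 of the 4. A match is a description of letters and not of a bound site.

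Among the 30 genes higher in both arms, the largest shared rises were of genes that wild-type pools hardly expressed. Gldn, on chromosome 9, encodes gliomedin, a protein known from the nodes of Ranvier of peripheral nerve. It stood at 0, 0.0815 and 0.109 CPM in the wild-type hepatocyte pools against 11.6, 9.41 and 12.1 CPM in Tg. In liver it stood at 0.0594, 0 and 0.25 CPM in wild type against 6.77, 10.6, 11.9 and 28 CPM in Tg. No Tg pool overlapped a control in either arm, and the log2 fold changes were 7.32 ± 0.55 (edgeR adjusted p = 0.00582) and 7.05 ± 0.82 (adjusted p = 0.0125); with 7 and 5 control reads in all, the size of either is loose. Igdcc4, a transmembrane protein of the immunoglobulin superfamily encoded on the same chromosome, stood at 0.0606, 0.0272 and 0.082 against 4.03, 4.76 and 2.66 CPM in hepatocytes. In liver its values were 0.0594, 0.121 and 0.0625 against 5.72, 1.13, 15.3 and 15.7 CPM, with Tg pool 2 far below the other 3 and still above every control. Its log2 fold changes were 5.99 ± 0.46 and 6.76 ± 1.16 (edgeR adjusted p = 0.00582 and 0.0325). Ly6d, a surface protein anchored by GPI, stood at 4.73, 2.61 and 4.76 against 56, 49.9 and 50.9 CPM in hepatocytes. In liver the values were 0.832, 1.03 and 0.874 against 22.3, 8.42, 223 and 84.5 CPM. The Tg hepatocyte pools lay close together, while the Tg livers spread from 8.42 to 223 CPM and Tg pool 2 was again the lowest; the folds were 3.70 ± 0.27 and 6.53 ± 1.26. Slc35f2, a membrane transporter, rose by almost the same amount in each arm (3.40 ± 0.35 in hepatocytes, edgeR adjusted p = 0.0119, and 3.45 ± 0.44 in liver, adjusted p = 0.0136), and its difference was -0.13 ± 0.55 (adjusted p = 0.899). All 41 genes called in both arms had no overlap between Tg and wild-type pools in either arm, where 32.9% of all genes tested in hepatocytes and 20.9% of those tested in liver had none.

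Cfd and Aqp7, markers of fat cells, were called in both arms, as were Scd2 and Ucp2. Of the lists on fat, the adipocyte markers held 2 genes called in both arms, and lipid droplet genes (19 tested), fatty acid and triglyceride synthesis (22) and PPARalpha targets (29) held 0. Cfd, the serum protease adipsin, stood at 0.152, 0 and 0.082 against 3.04, 5.86 and 2.32 CPM in hepatocytes. Liver levels were 0.238, 1.63 and 0.312 against 16, 27.1, 2.74 and 10.3 CPM, where the lowest Tg pool was 2.74 CPM and the highest control 1.63 CPM. Its log2 fold changes were 5.56 ± 0.78 and 4.25 ± 0.90 (edgeR adjusted p = 0.0247 and 0.0473). Aqp7, the glycerol channel of fat cells, stood at 0.273, 0.353 and 0.219 against 2.26, 3.67 and 1.67 CPM in hepatocytes. In liver Aqp7 had 1 read over the 3 control pools and 346 over the 4 Tg pools, a ratio of 236 with an exact 95% counting interval from 42 to 9340 that covers counting error only. Scd2, a stearoyl-CoA desaturase isoform low in adult liver, stood at 3.67, 10.2 and 4.4 against 41.2, 57 and 31.3 CPM in hepatocytes. The liver pools held 7.37, 6.18 and 6.81 against 63.8, 21.1, 173 and 161 CPM. Here too the Tg livers spread widely, and the folds were 2.82 ± 0.45 and 3.95 ± 0.69 (edgeR adjusted p = 0.0304 and 0.0337). Ucp2, a carrier of the inner mitochondrial membrane, rose from 13.7, 9.49 and 19.1 to 75.2, 64.4 and 41 CPM in hepatocytes and from 35.4, 39.2 and 35.4 to 93.1, 119, 136 and 82.5 CPM in liver, 2.09 ± 0.33 and 1.55 ± 0.18 on the log2 scale. Of the 11 adipocyte markers listed, 7 were tested in each arm. By the calls, 3 rose in hepatocytes (Cfd, Cidec and Aqp7), 2 rose in liver (Cfd and Aqp7) and 0 fell. Of the 7 tested, 6 had a liver estimate above 0 (median 1.85) and 5 a hepatocyte estimate above 0 (median 1.2). The summed level of the list, which its most abundant members set, did not follow these rises. In liver it was lower in Tg, at 5724 to 6047 CPM in wild type and 2286 to 5089 CPM in Tg. In hepatocytes it overlapped, at 154.5 to 573.5 CPM in wild type and 146.9 to 409.9 CPM in Tg. Adipoq, a defining marker of fat cells, was at 0 in every hepatocyte pool and in the 3 control livers, and had 1, 1, 2 and 0 reads in the Tg livers.

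Some shared rises were of secreted or immune genes, picked from the shared genes for description: of the lists, chemokines and cytokines held 1 gene called in both arms, antigen presentation 1, and the interferon, acute-phase and macrophage lists 0. Cxcl14, a chemokine, stood at 0.424, 1.11 and 0.492 against 9.99, 6.57 and 8.18 CPM in hepatocytes. Whole liver gave 1.25, 1.03 and 1.75 against 9.49, 3.67, 10.8 and 16 CPM (3.59 ± 0.42 and 2.89 ± 0.49, edgeR adjusted p = 0.0151 and 0.0311). Chil1, a secreted chitinase-like protein, rose by 3.86 ± 0.60 and 2.84 ± 0.39. P2rx7, a channel gated by extracellular ATP, rose by 1.90 ± 0.35 and 1.58 ± 0.28, and the B cell adaptor gene Blnk by 1.90 ± 0.18 and 1.75 ± 0.33. Cd74, the invariant chain of MHC class II, stood at 16.3, 22.7 and 28.5 against 52.9, 75.3 and 66.4 CPM in hepatocytes. In the livers it was at 113, 96.3 and 90.4 against 241, 196, 547 and 313 CPM. Its folds of 1.53 and 1.70 were close, with a difference of -0.0032 ± 0.41. Markers of macrophages moved with these genes in both arms: the summed level of 22 Kupffer cell and macrophage markers ran from 488.6 to 641 CPM in wild-type and from 1031 to 1442 CPM in Tg hepatocyte pools, and from 433 to 528.1 CPM in wild-type and from 622.6 to 1004 CPM in Tg livers. Of these markers 3 of 20 tested rose in hepatocytes (Cd14, Tyrobp and Ly6c2), and in liver 9 of 22 rose, among them Vsig4, Csf1r and C1qb, while Cd163 fell; their part in these rises was not tested.

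The remaining shared rises named by the rule were Tmprss4, Hsf2bp, Fndc10, Tuba8, Gramd1b, Fam129b and Micall2, with folds from 1.73 to 5.08 in hepatocytes and from 1.67 to 4.38 in liver. Fam129b, a scaffold protein linked to cell survival, stood at 13.7, 20.8 and 27.1 against 58.5, 75.5 and 70.4 CPM in hepatocytes. The corresponding liver values were 15.1, 12 and 12 against 37.1, 65.1, 67.8 and 52.3 CPM, a fold of 1.73 ± 0.26 and 2.09 ± 0.22. Its exons overlap those of Lrsam1 on the other strand, whose folds were 0.38 and 0.13 and not called. Tuba8, an alpha tubulin, rose by 1.91 ± 0.30 and 2.99 ± 0.63, and Tmprss4, a membrane serine protease, by 5.08 ± 0.53 and 2.72 ± 0.58. The 5 other shared rises, outside the rule for names, were Stk10, Mas1, Wfdc12, 5330417C22Rik and Mrgprb11-ps. Among all 41 genes called in both arms the difference of effects was not called for 34 and called for 7, so that being called in both did not mean an equal size. The 7 included Adgre5, Prelp, Slc13a3, Smpd3, Kyat3 and Gm17767. For the 34, the test does not show that the effects were alike; the difference for Gldn, for example, was -0.39 ± 1.20 and for Aqp7 3.99 ± 1.76.

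**Figure D3:**
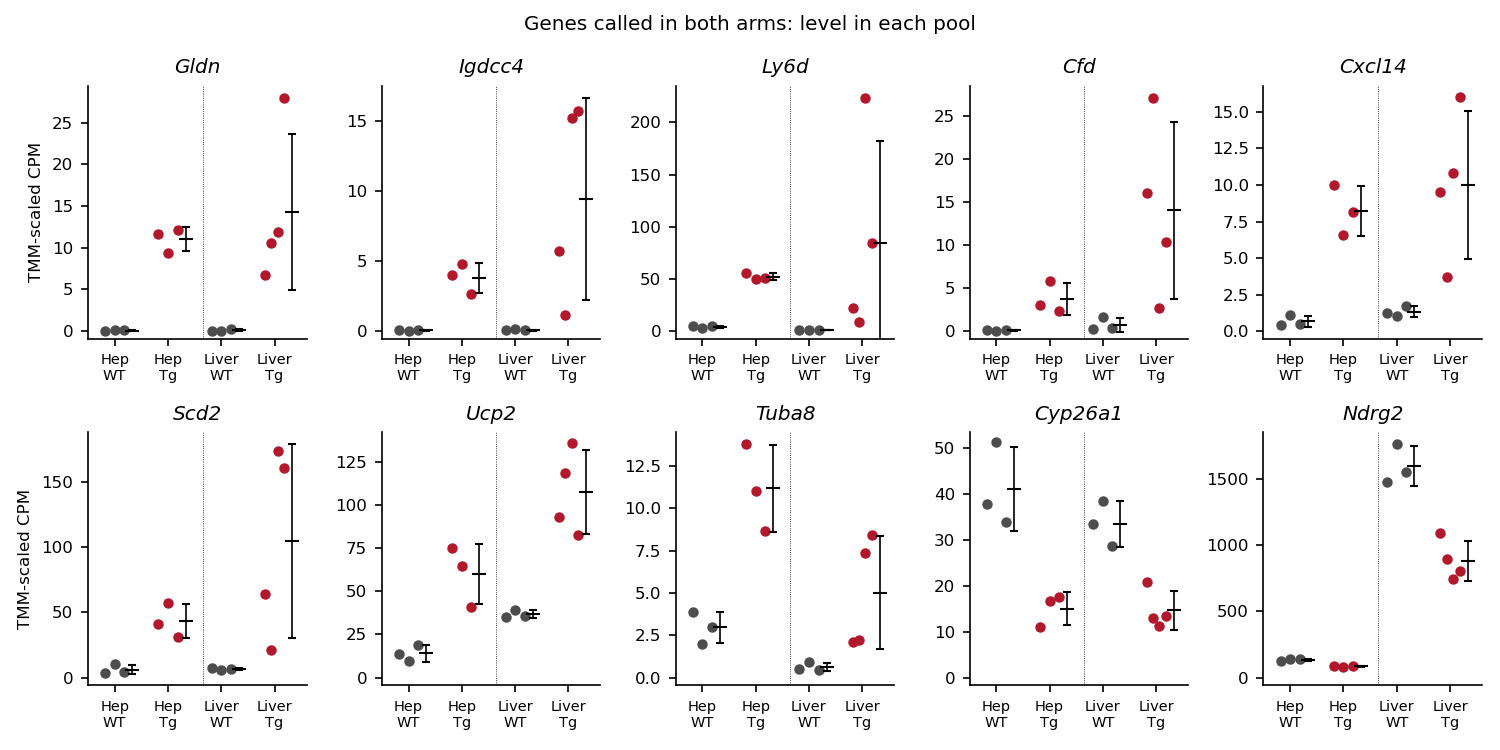
Level of 10 genes called in both arms, in TMM-scaled CPM on a linear axis, scaled separately in each arm; each point is 1 pool, and the bar beside each group is its mean ± SD (n = 3, 3, 3 and 4 pools). In each panel the Tg pools of an arm lie wholly above or wholly below its wild-type pools. The Tg livers ran from 8.42 to 223 CPM for Ly6d and from 21.1 to 173 CPM for Scd2.

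Of the 10 genes lower in both arms, 4 lay outside chromosome 14. Pdk1, a kinase that restrains pyruvate oxidation and responds to low oxygen, stood at 23.1, 61.9 and 35.5 against 8.49, 7.34 and 9.32 CPM in hepatocytes. In liver the values were 121, 169.9 and 156 against 77.3, 95.8, 77.5 and 56.1 CPM. It fell by 2.26 ± 0.36 in hepatocytes and by 0.96 ± 0.19 in liver on the log2 scale (edgeR adjusted p = 0.0306 and 0.0403). Cyp26a1, the cytochrome that clears retinoic acid, stood at 37.9, 51.4 and 34 against 11, 16.8 and 17.5 CPM. Liver levels were 33.4, 38.6 and 28.7 against 20.9, 12.9, 11.3 and 13.5 CPM, with folds of -1.45 ± 0.25 and -1.20 ± 0.21 and a difference of 0.08 ± 0.33. Srgap3, a GTPase-activating protein, fell with folds of -1.47 ± 0.23 and -1.26 ± 0.23. Kyat3, a kynurenine aminotransferase, fell in both arms and further in liver, as given with the differing genes.

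The other 6 genes lower in both arms, Tmem260, Ppp1r3e, Cdadc1, Pcca, Fbxo34 and Ndrg2, lie on chromosome 14, which holds 3.242% of the genes tested in both arms. Pcca, a subunit of propionyl-CoA carboxylase, stood at 23.2, 23.4 and 20.6 against 12.4, 11 and 11.5 CPM in hepatocytes. The liver pools held 75, 88.8 and 83.8 against 50.1, 38.6, 35.3 and 41.5 CPM, with folds of -0.95 ± 0.15 and -0.997 ± 0.14. Its exons overlap Ggact on the other strand, whose folds were -0.35 and -0.59, neither called. Ndrg2, a differentiation-linked gene abundant in liver, stood at 123, 139 and 139 against 84.9, 82.5 and 87.5 CPM. Whole liver gave 1477, 1766 and 1551 against 1092, 892, 745 and 803 CPM, with folds of -0.66 ± 0.11 and -0.86 ± 0.16. Genes of the chromosome were low as a whole in Tg: the median effect was -0.693 over 437 tested genes in hepatocytes, where 77 fell, and -0.295 over 470 in liver, where 14 fell. By pool, the median deviation of its genes from the wild-type mean was -0.669, -0.561 and -0.611 in the Tg hepatocyte pools. In the Tg livers it was 0.00502, -0.55, -0.392 and -0.281, so that Tg liver pool 1 lay with the controls, which ran from -0.0228 to 0.0353 over both arms. The difference of effects was called for 4 of 496 genes of the chromosome, with a median of 0.325. Without chromosome 14, 133 differences were called and 28 genes in both arms in the same direction.

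A single gene was called in both arms in opposite directions. Gm17767, a long non-coding RNA gene model on chromosome 1, stood at 1.12, 1.77 and 1.26 against 0.29, 0.237 and 0.228 CPM in hepatocytes. In the livers it was at 0.535, 0.545 and 0.437 against 1.39, 1.91, 2 and 2.25 CPM. Tg pools were thus the lower ones in hepatocytes and the higher ones in liver, with no overlap in either. The folds were -2.44 ± 0.34 and 1.89 ± 0.30, and the difference was 4.13 ± 0.46 (edgeR adjusted p = 0.00237).

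Among genes with a higher effect in liver, the low-oxygen and glycolysis genes Ndufa4l2 and Pfkp fell in Tg hepatocytes without a call in liver. Ndufa4l2, a mitochondrial protein induced by hypoxia, stood at 11.3, 18.7 and 13.6 CPM in the wild-type hepatocyte pools against 1.68, 1.09 and 1.56 CPM in Tg. In liver it was low throughout, 1.01, 1.15 and 0.937 against 1.33, 1.47, 2.39 and 0.899 CPM, with overlapping groups. The hepatocyte fold was -3.33 ± 0.29 (edgeR adjusted p = 0.00815), the liver fold 0.56 ± 0.36 (adjusted p = 0.398) and the difference 3.71 ± 0.46 (adjusted p = 0.00662). Pfkp, the platelet form of phosphofructokinase, stood at 13, 33.1 and 21.6 against 3.91, 2.46 and 3.69 CPM in hepatocytes. The corresponding liver values were 4.87, 4.78 and 4.56 against 6.77, 6.85, 12.4 and 5.89 CPM. Its difference was 3.32 ± 0.47 (edgeR adjusted p = 0.0141), from -2.75 ± 0.38 in hepatocytes and 0.75 ± 0.27 in liver. Exons of both genes overlap a gene on the other strand, Shmt2 for Ndufa4l2 and Pitrm1 for Pfkp, and reads of the strands cannot be told apart where the strand setting is not given; Shmt2 had folds of -0.09 and -0.18 and Pitrm1 of -0.24 and -0.06, none of them called. Of the hypoxia and glycolysis list, 5 of 30 tested genes fell in hepatocytes (Pfkl, Pfkp, Pdk1, Ndufa4l2 and Bnip3) and 0 rose, while in liver Hk2 rose and Pdk1 fell among 31; the difference was called higher in liver for 2 of 31 and lower for 0.

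The p53 targets Eda2r and Ccng1 and the cell division genes Mki67 and Diaph3 also had a higher effect in liver, while the p53 list had 2 of 21 genes called in the difference and the cell cycle list 1 of 30. Eda2r, a TNF receptor family member and p53 target, stood at 26, 37.7 and 27.5 against 16.5, 17.6 and 24.4 CPM in hepatocytes. In liver the values were 0.416, 1.27 and 0.812 against 4.38, 5.87, 4.56 and 4.25 CPM. All 4 Tg livers were above all controls, and the difference was 2.99 ± 0.39 (edgeR adjusted p = 0.00813), from -0.64 ± 0.23 in hepatocytes, not called, and 2.51 ± 0.35 in liver. Ccng1, cyclin G1, stood at 109.9, 149.5 and 132 against 63, 68.5 and 82.3 CPM in hepatocytes. Liver levels were 30.4, 39.4 and 42.1 against 58.4, 59.9, 47.5 and 43.1 CPM. The difference was 1.19 ± 0.24. Of 21 p53 targets, 3 rose in liver (Cdkn1a, Phlda3 and Eda2r) and 1 fell in hepatocytes (Ccng1); the difference was called higher in liver for 2 and lower for 0, with a median of 0.127. Mki67, the proliferation marker Ki-67, stood at 5.18, 9.76 and 19.8 against 1.16, 1.21 and 5.4 CPM in hepatocytes, where the groups overlapped, and at 3.45, 2.66 and 3.19 against 5.88, 7.54, 18.8 and 14.3 CPM in liver, where they did not. Its difference was 3.96 ± 0.84 (edgeR adjusted p = 0.0489). Diaph3, a formin of chromosome 14 that nucleates actin and acts in cytokinesis, had folds of -1.63 ± 0.36 and 3.77 ± 0.82, neither called, and a difference of 5.25 ± 0.92 (edgeR adjusted p = 0.0377). Of the cell cycle list, 3 of 27 tested genes rose in liver (Mki67, Mcm2 and Mcm6), 0 of 30 were called in hepatocytes, and the median difference was 1.1 over 30 genes with 1 called.

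Asns, asparagine synthetase, a target of the integrated stress response, stood at 70.6, 41.9 and 64.8 CPM in wild-type and 114, 76.6 and 65.3 CPM in Tg hepatocytes, which overlapped. In liver it stood at 0.297, 0.727 and 0.437 CPM in wild type and 4, 3.33, 7.3 and 6.74 CPM in Tg. The wild-type level was 41.9 CPM or more in every plated pool and at most 0.727 CPM in every wild-type liver, and the liver fold of 3.44 ± 0.43 (edgeR adjusted p = 0.0136) started from that low level; the difference was 2.74 ± 0.56 (adjusted p = 0.047). The rest of the stress response list did not follow it: the median difference was -0.575 over 27 genes and Asns was the 1 gene called, while Trib3, Chac1 and Ppp1r15a rose and Dnajc3 fell in hepatocytes. Peg10, an imprinted gene of retrotransposon origin, stood at 10.8, 45.5 and 16.2 against 2.26, 2.63 and 5.56 CPM in hepatocytes. The liver pools held 0.297, 0.303 and 0.437 against 3.27, 1.17, 2.52 and 10.8 CPM. Pools of either arm did not overlap, but neither arm's fold was called (-2.80 ± 0.63, edgeR adjusted p = 0.0634, and 3.66 ± 0.82, adjusted p = 0.0557); the difference was 6.30 ± 1.08 (adjusted p = 0.034). Its imprinted neighbour Sgce, which starts head to head with it after 101 bases and was chosen for description after its values were seen, stood at 12.3, 9.51 and 11 against 3.36, 3.94 and 2.74 CPM. Whole liver gave 2.5, 2.24 and 1.81 against 7.16, 2.55, 4.56 and 12.6 CPM. The difference was 3.14 ± 0.61. In both genes Tg liver pool 2 was the lowest of the Tg livers and Tg liver pool 4 the highest.

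Ide, insulin-degrading enzyme, lies in a segment known to vary in copy number among C57BL/6 mice, and stood at 214, 326 and 218 CPM in wild-type against 81.3, 82.7 and 117 CPM in Tg hepatocytes, which did not overlap. In liver the values were 121, 112 and 106 CPM against 112, 103, 160.3 and 121 CPM and overlapped. The fold was -1.43 ± 0.23 in hepatocytes (edgeR adjusted p = 0.0306) and 0.13 ± 0.16 in liver, with a difference of 1.40 ± 0.27 (adjusted p = 0.0419). Copy number was not measured here.

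The other genes of this direction named by the rule were Acmsd, Cpne8, Slc25a24, Myof, Filip1l, Faxc and Unc13b. Acmsd, which diverts the kynurenine pathway away from NAD synthesis, stood at 9.27, 8.4 and 12.4 against 6.34, 6.01 and 6.2 CPM in hepatocytes. In the livers it was at 17.8, 19.1 and 15.4 against 43.7, 28.9, 43.6 and 44.1 CPM. The difference was 1.72 ± 0.28 (edgeR adjusted p = 0.028). Slc25a24, a mitochondrial carrier for ATP and phosphate, stood at 103, 105 and 117 against 35.4, 34.4 and 42.2 CPM in hepatocytes, a fold of -1.54 ± 0.14. Liver levels were much lower, 2.79, 2.36 and 2.31 against 2.5, 3.52, 6.13 and 3.1 CPM, and levels were not tested across arms. Cpne8, a calcium-dependent membrane-binding protein, and Myof, a membrane repair protein, had lower values in every Tg hepatocyte pool and higher values in every Tg liver than in any control, with differences of 1.98 ± 0.29 and 1.93 ± 0.34. Filip1l and Unc13b, the latter a priming factor of vesicle fusion, had differences of 2.51 ± 0.45 and 2.05 ± 0.37. Faxc had 0 reads in the control livers and 21 over the Tg livers, at least 4.77-fold higher against a floor of 3 counts over the group, and was not tested in the liver arm; the fitted difference of 7.26 ± 1.21 depends on the prior count.

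Dgat2, Creb3l3, Acot3, Apoa5 and Mid1ip1, which act in fat metabolism, had a lower effect in liver, with a positive estimate in hepatocytes and a negative one in liver. Most members of the lists on fat had no called difference. It was called lower in liver for 1 of 22 fatty acid and triglyceride synthesis genes and 1 of 27 lipoprotein genes. Of 19 lipid droplet genes and 22 cholesterol synthesis genes, 0 were called. Dgat2, which makes triglyceride, stood at 234, 195 and 198 against 431, 435 and 377 CPM in hepatocytes. The corresponding liver values were 873, 960.2 and 984 against 672, 837, 648 and 548 CPM. Tg pools were above all controls in hepatocytes and below all controls in liver; the folds were 0.99 ± 0.13 (edgeR adjusted p = 0.0234) and -0.47 ± 0.16 (adjusted p = 0.13), and the difference -1.64 ± 0.25 (adjusted p = 0.0251). Creb3l3, a liver transcription factor of fasting and triglyceride metabolism, stood at 60.5, 46.7 and 49.8 against 114, 149.6 and 92.9 CPM. In liver the values were 325, 443 and 423 against 287, 344, 299 and 291 CPM. The difference was -1.75 ± 0.29. Acot3, a peroxisomal acyl-CoA thioesterase, stood at 0.939, 0.571 and 0.793 against 0.811, 1.33 and 1.29 CPM in hepatocytes. Liver levels were 7.31, 42.5 and 38.1 against 0.611, 4.21, 3.56 and 2.85 CPM. The difference was -4.11 ± 0.88. Its exons overlap 4732463B04Rik on the other strand, which also fell in liver (-1.87). The near copies Acot1 and Acot4 fell in liver too (-1.84 and -1.77), and how reads were divided among copies is not given in the sources used here. Of 29 PPARalpha targets and oxidation genes, 1 rose in hepatocytes (Creb3l3) and 3 fell in liver (Acot1, Acot3 and Acot4). In this list 3 had a called difference, each lower in liver, and the median difference was -0.671 against -0.052 over all genes tested. A low median was not particular to this list. Hepatocyte markers had -0.635, periportal genes -0.596, xenobiotic metabolism -0.536 and bile acid genes -0.338, while major urinary proteins had 1.48. Apoa5, an apolipoprotein that speeds triglyceride clearance, had folds of 0.32 ± 0.13 and -0.75 ± 0.18, neither called, and a difference of -1.24 ± 0.26; Mid1ip1, which activates acetyl-CoA carboxylase, had a difference of -1.35 ± 0.22. Albumin was lower in every Tg liver than in every control liver, as given above, and its part in these liver values was not tested.

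The enzymes Alas1, Fmo1, Kyat3 and Nmrk1 also had a lower effect in liver. Of the lists that bear on them, xenobiotic metabolism had 0 of 26 genes called in the difference, and urea cycle and kynurenine enzymes had 1 of 22 lower in liver (Kyat3) and 1 higher (Acmsd). Alas1, the first enzyme of haem synthesis, stood at 160.1, 139 and 143 against 303, 261 and 243 CPM in hepatocytes. The liver pools held 834, 1233 and 1025 against 564, 702, 344 and 424 CPM. It rose in hepatocytes (0.87 ± 0.13, edgeR adjusted p = 0.0299), the liver fold was -1.02 ± 0.25 (adjusted p = 0.0654), and the difference was -2.07 ± 0.34 (adjusted p = 0.0295). Fmo1, a flavin monooxygenase, stood at 11.8, 21.3 and 21.7 against 46.2, 52.5 and 56.1 CPM in hepatocytes and overlapped between groups in liver (142, 219.5 and 184 against 160.3, 193, 153 and 151 CPM), a difference of -1.82 ± 0.29. Kyat3 stood at 60.2, 79.5 and 57.3 against 26.8, 28.5 and 34.6 CPM in hepatocytes. Whole liver gave 162, 171 and 168 against 21, 25.4, 38.8 and 26.1 CPM, so that it fell in both arms (-1.13 ± 0.18 and -2.58 ± 0.19) and further in liver, by a difference of -1.62 ± 0.27 (edgeR adjusted p = 0.0295). Nmrk1, a kinase of NAD salvage, stood in hepatocytes at 3.76, 3.48 and 3.42 against 4, 3.88 and 3.69 CPM and fell in liver from 36.4, 35.2 and 39.2 to 18, 17.2, 19.5 and 13.6 CPM. The difference was -1.41 ± 0.23 (edgeR adjusted p = 0.028).

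Adgre5, Prelp, Col4a4, Col4a3, Slc13a3, Klf4 and Rcan2 rose in Tg hepatocytes and had a lower effect in liver. Adgre5, the adhesion receptor CD97, stood at 4.18, 2.15 and 4.87 CPM in wild-type and 172, 147 and 98.7 CPM in Tg hepatocytes. In liver it stood at 21.2, 20.9 and 23.1 CPM in wild type and 41.1, 35.3, 51.4 and 37.3 CPM in Tg. It rose in both arms (5.22 ± 0.39, edgeR adjusted p = 0.00582, and 0.93 ± 0.15, adjusted p = 0.0261), and the difference of -4.48 ± 0.41 had the smallest p of all genes tested (adjusted p = 0.000633). Its exons overlap Ddx39 on the other strand, whose folds were 0.52 and 0.47, neither called. Prelp, a leucine-rich proteoglycan of basement membranes, stood at 5.73, 5 and 5.58 against 19, 20.3 and 23.8 CPM. In the livers it was at 66.9, 70.1 and 74.9 against 108, 109, 105 and 100.2 CPM, so that it rose by 1.95 ± 0.17 and 0.58 ± 0.10, a difference of -1.54 ± 0.17 (edgeR adjusted p = 0.00237). Col4a4 and Col4a3, chains of type IV collagen, shared this pattern: Col4a4 stood at 0.333, 0.897 and 0.574 against 5.04, 4.91 and 5.75 CPM in hepatocytes. The corresponding liver values were 3.68, 2.42 and 1.25 against 2.39, 2.74, 1.83 and 2.9 CPM. Col4a3 stood at 0.212, 0.353 and 0.574 against 3.82, 4.62 and 6.51 CPM. In liver the values were 2.14, 1.51 and 1.62 against 2.11, 4.75, 4.21 and 5.1 CPM, and the differences were -3.28 ± 0.52 and -2.65 ± 0.52 (edgeR adjusted p = 0.028 and 0.0441). The other chains did otherwise: Col4a1 and Col4a2, also encoded head to head, rose in liver (1.53 and 1.66) without a call in hepatocytes (1.51 and 1.46) or in the difference (-0.16 and 0.02). Exons of Col4a3 overlap C430014B12Rik on the other strand, not called in either arm. Slc13a3, a dicarboxylate carrier, rose from 1.455, 1.11 and 1.42 to 20.1, 16.1 and 13.9 CPM in hepatocytes and from 27.8, 29.6 and 23 to 76.3, 126, 41 and 84.8 CPM in liver, a difference of -2.22 ± 0.45. Klf4, a transcription factor of epithelial differentiation, rose in hepatocytes from 2.73, 2.69 and 3.69 to 9.76, 17.8 and 16.9 CPM and overlapped in liver (-0.05), a difference of -2.49 ± 0.38. Rcan2, an inhibitor of calcineurin, and Fcna, a ficolin of macrophages, had differences of -2.62 ± 0.40 and -1.59 ± 0.22. Smpd3, a neutral sphingomyelinase, rose more in liver (2.58 ± 0.18) than in hepatocytes (1.02 ± 0.20), a difference of 1.37 ± 0.28; its exons overlap Prmt7 on the other strand, whose folds were 0.34 and -0.25, neither called.

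Besides the genes described, 42 genes had a called difference that was higher in liver, from 0.80 to 4.99, and 41 a lower one, from -3.53 to -0.86.

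**Figure D4:**
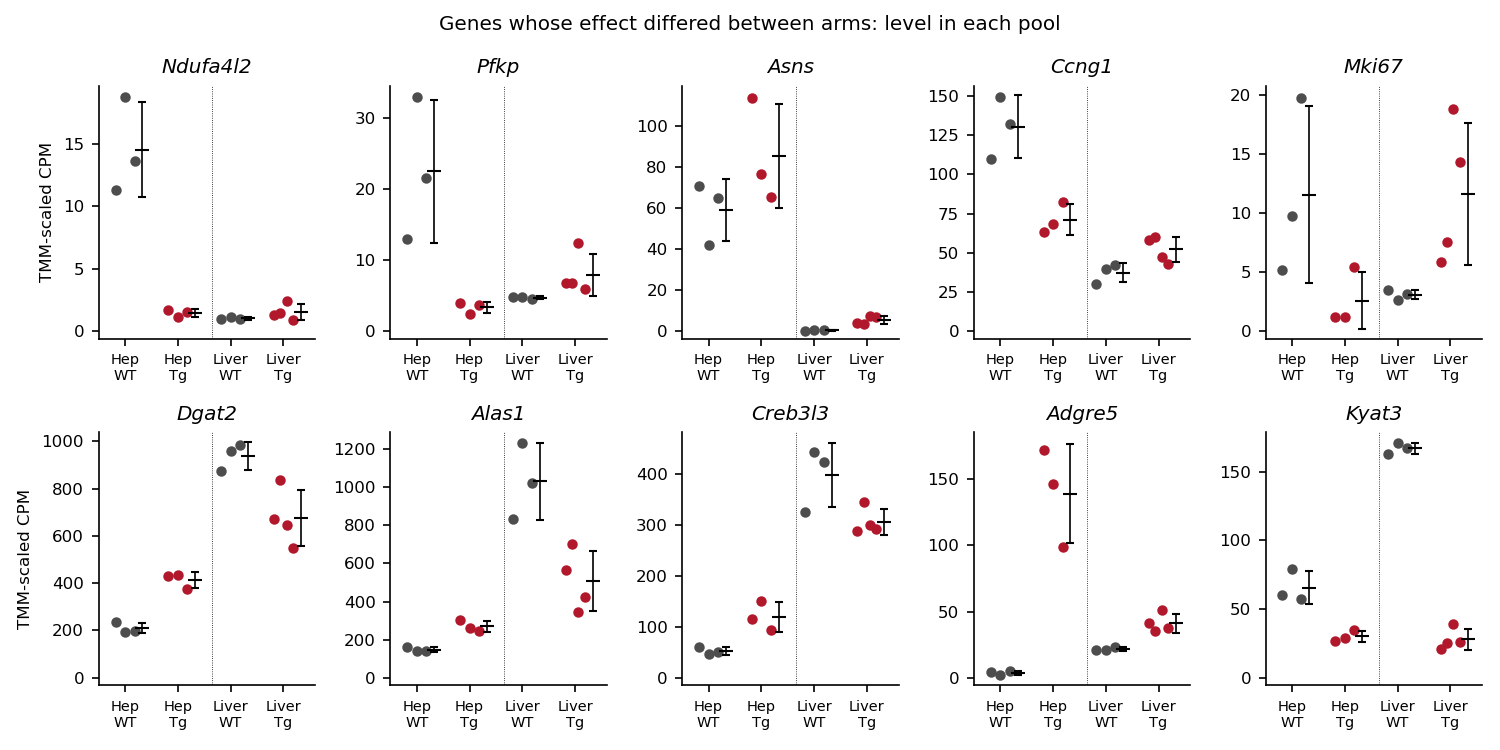
Level of 10 genes whose effect differed between arms, in TMM-scaled CPM on a linear axis, scaled separately in each arm; each point is 1 pool, and the bar beside each group is its mean ± SD (n = 3, 3, 3 and 4 pools). Ndufa4l2 and Pfkp were low in Tg hepatocytes; in liver Ndufa4l2 overlapped and Pfkp was higher in every Tg pool than in every control, without a call, while Dgat2 and Alas1 were high in Tg hepatocytes and low in Tg livers.

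Gene lists are described by their counts and medians beside the background of 3.15% called in hepatocytes, 2.69% in liver and 0.780% in the difference. Of the oncofetal and tumour genes, 10 of 26 tested were called higher in hepatocytes, among them Afp (alpha-fetoprotein, 1.71), the imprinted RNA H19 (4.22) and Spink1 (4.01). In liver 2 of 26 were called higher (Ly6d and Scd2). The medians of the list were 1.54 in hepatocytes and 1.53 in liver, and 0 of 27 had a called difference. Ly6d and Scd2 were the members called in both arms, and the list was chosen with earlier results of these data known. Chemokines and cytokines rose in hepatocytes for 7 of 25 and in liver for 2 of 19, with 0 of 25 called in the difference, and interferon-stimulated genes for 3 and 2 of 28. Antigen presentation genes rose for 1 of 16 in hepatocytes (Cd74) and for 5 of 16 in liver (H2-Aa, H2-Ab1, H2-Eb1, H2-DMa and Cd74), with 0 called in the difference. Stellate cell and fibrosis genes rose in liver for 7 of 23, including Col1a2 (1.73), Col3a1 (1.43) and Lum (2.19), and in hepatocytes Lox fell and 0 rose among 17; 0 of 24 had a called difference. The summed level of that list ran from 800.2 to 896.5 CPM in the wild-type livers and from 1042 to 1477 CPM in the Tg livers. In hepatocytes it overlapped, at 1114 to 1478 against 1031 to 1694 CPM. Major urinary proteins fell in hepatocytes for 5 of 15 (Mup1, Mup3, Mup7, Mup12 and Mup21) and rose for Mup9. Of this list 0 of 15 were called in liver and 0 of 17 in the difference, despite a median difference of 1.48. These are near-identical copies whose reads are uncertain. Female-biased liver genes had medians of 0.567 in hepatocytes and -0.307 in liver, with 2 of 16 called higher in hepatocytes. Male-biased genes had medians of -0.388 and -0.11, with 0 of 20 called in hepatocytes. The sex of the mice in the pools is not given, and its part was not tested. Hepatocyte markers and identity factors had 0 of 27 called in either arm or in the difference by edgeR, with medians of 0.212 in hepatocytes, -0.331 in liver and -0.635 for the difference. Cholesterol synthesis, bile acid and splicing factor lists had 0 called in all 3 comparisons. Endothelial markers had 1 of 19 called in liver (Vwf, 0.79) and 0 in the difference.

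**Figure D5:**
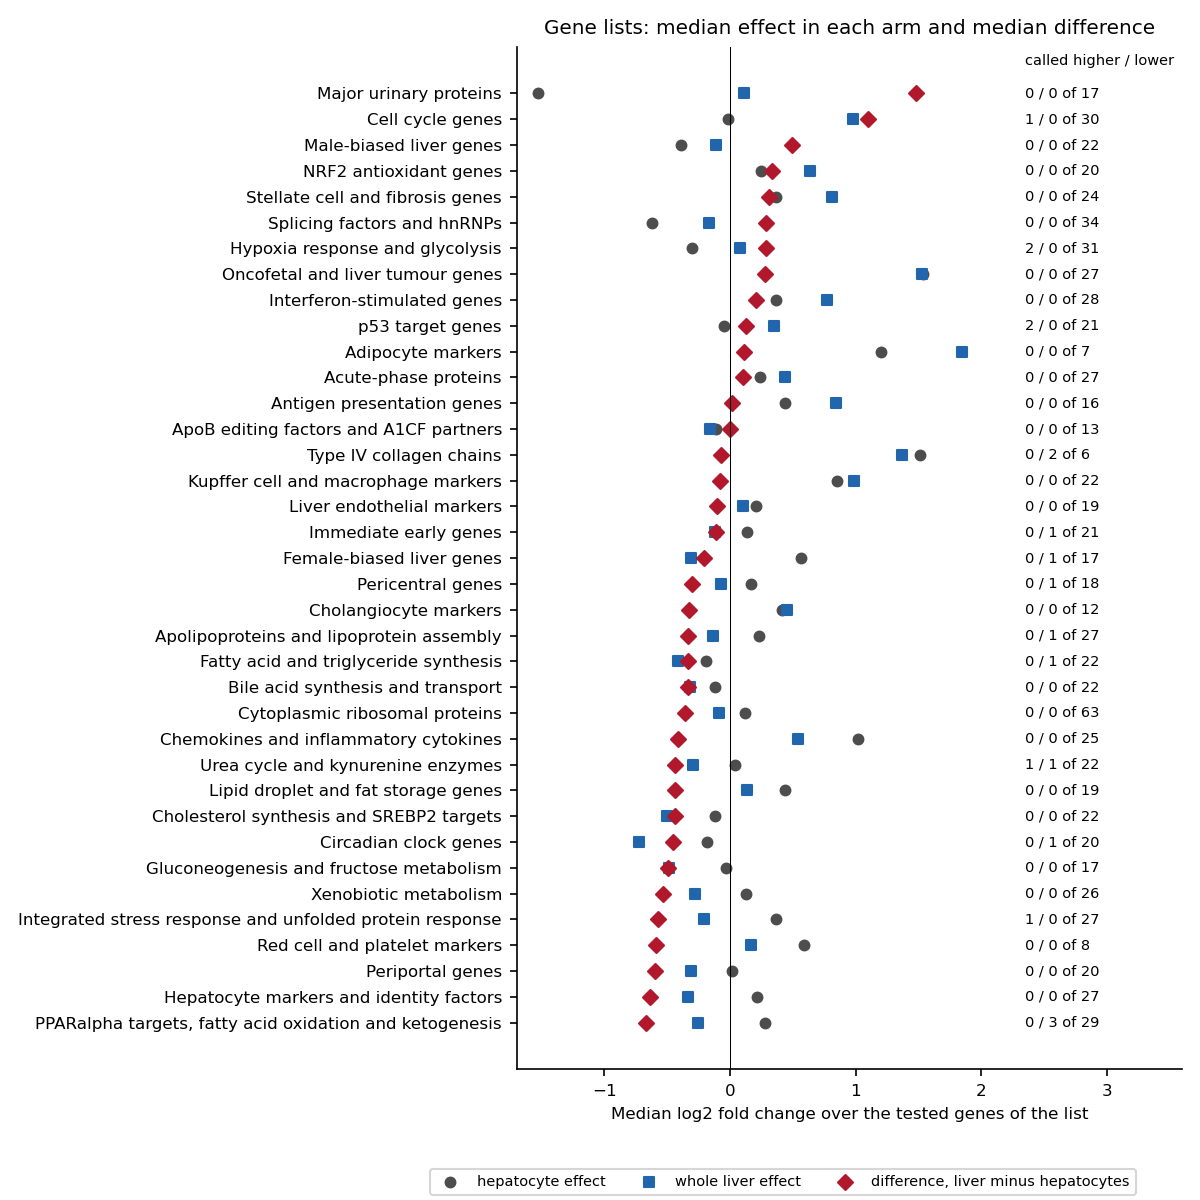
Median log2 fold change over the tested genes of each list (horizontal axis) in hepatocytes (circles), in whole liver (squares) and for the difference, liver minus hepatocytes (diamonds); numbers at the right give how many members had a called difference, higher or lower in liver, of how many tested. PPARalpha targets had 3 of 29 called lower in liver and a median difference of -0.671, and cell cycle genes had the median difference of 1.1. Hepatocyte markers (-0.635) and periportal genes (-0.596) had medians close to that of PPARalpha targets, with 0 called.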

How the data were processed

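RNA-seq read counts per gene were analysed in 13 libraries: 3 Tg and 3 wild-type hepatocyte pools and 4 Tg and 3 wild-type liver pools. The authors deposited raw counts for each gene; reads were aligned with STAR 2.0.4b to GRCm38 and counted with featureCounts 1.45, per the submitters' processing notes. The annotation release, strand setting and treatment of multiply aligned reads are not given in the sources used here. Low genes were dropped by edgeR's filterByExpr at a count of 10 and a total of 15. Libraries were scaled by TMM, and edgeR 4.0.16 in R 4.3.3 then gave quasi-likelihood F-tests, two-sided, with Benjamini-Hochberg adjustment over all genes tested and a threshold of 0.05. Each arm was fitted on its own libraries, and the difference of effects in 1 fit of all 4 groups. Printed levels are CPM computed from those counts, scaled by TMM within an arm and set side by side across arms without a test. The levels of Acta1, Ckm, Mylpf and albumin are the exception and are relative to the library's total alone. The procedure was tested on simulated counts with the same spread for every gene and no split shared across pools. That test does not check calls made where pools share such a split.

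The genes named are A1cf, the 20 genes with the largest smaller fold change among those called in both arms, those called in opposite directions, the 12 with the smallest p in each direction of the difference, and up to 2 members of each gene list, with a mean of at least 2 CPM in a group and passing over unnamed models; the other genes called in both arms were added after their values were seen. Some of these genes are not reported here. The members and lists were chosen with earlier results of these data known. Replicates of a group differed by more than counting noise, with a chi-square per gene from 28.96 to 193. P-values measure the spread between pools. Pools of equal number are not paired by the labels, so no block entered the fits. Alternatives were DESeq2 1.42.0, limma 3.58.1 with voom, other scaling, no filter, pools left out, chromosome 14 left out and a length correction. The CLIP and knockout libraries were not used here.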

Additional observations from a re-analysis of the deposited data

Results flagged for a closer look

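The difference of effects, whole liver minus hepatocytes on the log2 scale, passed the edgeR threshold for 36 genes named here, and all values in this paragraph are such differences. A higher effect in liver was found for Gm17767 (4.13), Ndufa4l2 (3.71), Eda2r (2.99), Pfkp (3.32), Cpne8 (1.98), Acmsd (1.72), Peg10 (6.30), Slc25a24 (1.99), Diaph3 (5.25), Myof (1.93), Filip1l (2.51), Faxc (7.26) and Unc13b (2.05), and for Sgce (3.14) and Smpd3 (1.37), described outside the rule for names. From the gene lists it was found for Asns (2.74), Ccng1 (1.19), Mki67 (3.96) and Ide (1.40), the last a gene known to vary in copy number among C57BL/6 mice that fell in Tg hepatocytes. A lower effect in liver was found for Adgre5 (-4.48), Prelp (-1.54), Fcna (-1.59), Klf4 (-2.49), Rcan2 (-2.62), Dgat2 (-1.64), Col4a4 (-3.28), Nmrk1 (-1.41), Fmo1 (-1.82), Mid1ip1 (-1.35), Kyat3 (-1.62), Alas1 (-2.07) and Slc13a3 (-2.22). From the lists it was found for Creb3l3 (-1.75), Acot3 (-4.11), Col4a3 (-2.65) and Apoa5 (-1.24).

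Among the 4 Tg livers, 1 pool lay far from the other 3 for 4 of 49 results looked at, where chance flags about 1 in 20. Tg liver pool 3 was high for Blnk (8.21 CPM against 4.45 to 4.77), for Pfkp (12.4 CPM against 5.89 to 6.85) and for Myof (20.5 CPM against 10.9 to 12.3). Tg liver pool 2 was low for Acmsd (28.9 CPM against 43.6 to 44.1).

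The wild-type liver pool that was left out held 777.6 CPM of Acta1, a skeletal muscle gene, with Ckm at 174.4 CPM and Mylpf at 66.5 CPM, against at most 0.969 CPM of Acta1 in the other livers.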

How the results depend on the processing

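Counts of calls are given as hepatocytes, whole liver, difference of effects and genes called in both arms in the same direction, against 434, 385, 119 and 40. DESeq2 called 2017, 1527, 925 and 345. Without a filter on low counts the counts were 669, 698, 194 and 120. Arm effects taken from the fit of all 4 groups gave 2485 in hepatocytes, 606 in liver and 173 in both. With voom, 25 differences were called. Including wild-type liver pool 2 gave 188 liver calls, and leaving out chromosome 14 gave 283 hepatocyte calls. Leaving out the 3 hepatocyte pools low in mitochondrial RNA, an alternative added after seeing the data like TMM within each tissue, gave 0 differences. Without each pool in turn, the counts ran from 0 to 4934, 12 to 924, 5 to 3367 and 0 to 123. Other counts stayed within 1.5 times. For these counts the cause was not tested. Equal pool numbers did not pair the samples: correlations of their deviations were 0.747, -0.596 and -0.0253 in hepatocytes and -0.0431, -0.0454 and 0.0191 in liver. Hepatocyte pools of unlike number also correlated strongly. Tg 2 with wild type 1 gave 0.6 and Tg 3 with wild type 2 gave 0.763. Tg 3 with wild type 1 gave -0.808 and Tg 1 with wild type 2 gave -0.686. The hepatocyte pools thus shared a split across genotypes, which no fit modelled and whose cause was not tested. With the replicate block, hepatocyte calls numbered 21, shared calls 7, liver calls 417 and differences 111. Over the genes that the rule names, 2783 recomputed results kept direction and side of the threshold, 501 lost the call, 131 gained one and 0 reversed. At 17044839 to 37211328 counts a library, genes near 0 in controls have loose fold changes.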

Other observations

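Some detoxification genes rose in hepatocytes. Of 26 xenobiotic metabolism genes, 4 rose in hepatocytes, namely Cyp2a4 (4.02 ± 0.49), Cyp2a5 (0.65 ± 0.12), Cyp2a22 (2.73 ± 0.25) and Cyp2b9 (1.43 ± 0.28), and 0 of 26 were called in liver or in the difference by edgeR. The liver folds of Cyp2a5 and Cyp2b9 were 0.29 ± 0.28 and -1.39 ± 0.90. Cytochrome genes of the Cyp2a family are close copies, so that the division of their reads is uncertain. NRF2 antioxidant genes had 2 of 19 called in hepatocytes, Nqo1 (0.90 ± 0.14) and Cbr3 (1.21 ± 0.22), with medians of 0.244 in hepatocytes and 0.636 in liver and 0 called in the difference.

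Lipid droplet genes differed in which member was called. Cd36 (2.54 ± 0.30), a fatty acid receptor, and Mogat1 (4.51 ± 0.47), an acyltransferase of triglyceride synthesis, rose in hepatocytes, where Hsd17b13 fell, and Lpl (2.70 ± 0.40), lipoprotein lipase, rose in liver; 0 of 19 had a called difference. Of the editing factors, Apobec1 rose in liver (0.91 ± 0.18) with a hepatocyte fold of 0.00 ± 0.15, and its difference of 0.73 ± 0.24 was not called. These results are values only, and the liver rise of Apobec1 stands beside the macrophage marker sums of the same pools, whose part was not tested.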
